A study of Mus musculus with 2 samples.

Results

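The neutrophil granule and maturity genes described here are 10 genes, Camp, Ltf, Ngp, Mmp8, Mmp9, Cd177, Prok2, Wfdc17, Wfdc21 and Retnlg, of 32286 features counted in single-cell RNA-seq of mouse lung. They were taken by gene symbol and chosen by their levels in the neutrophils of these same libraries, where earlier results had shown wide differences between the conditions for some of them, so their differences between the libraries are given as a description and not as a test. Lungs of female BALB/c mice aged 9 to 10 weeks were analysed after intravenous injections, over 3 weeks, of control media (CM) or of tumor conditioned media (TCM). TCM was medium in which pieces of 4T1 mammary tumors grown in BALB/c mice had been cultured, pooled over several tumors, and CM was the same medium incubated with no tumor. The labels name no tumor and no transgene in the mice. There is 1 library per condition, and the number of mice behind each library is not given in the sources used here. The mouse and the condition therefore cannot be told apart, no p-value is given, and every interval is for counting error alone.

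The CM library held 31944151 UMIs (unique molecular identifiers, each standing for 1 captured transcript) and the TCM library 36648719. Cells were the droplets of 500 or more UMIs, at least 200 genes and at most 10% mitochondrial UMIs, which gave 7988 cells in CM with a median of 2085 UMIs and 7707 in TCM with a median of 2346 UMIs. Of the cell barcodes, 93 occurred in both libraries. Neutrophil-like cells were 4 clusters of 50, named from marker genes with the 10 members left out of the clustering, and they comprised 293 cells in CM (3.67% of the cells) and 1599 in TCM (20.7%), shares that dissociation and the UMI minimum can also set. Csf3r, the receptor for granulocyte colony-stimulating factor, was seen in 74.4% and 85.1% of them, Cxcr2, a chemokine receptor, in 57.0% and 81.7%, and Il1r2, a decoy receptor for interleukin 1, in 74.1% and 88.4%. At least 2 of these 3 genes were seen in 73.0% (CM) and 90.5% (TCM) of neutrophil-like cells, against none of the 741 CM and 458 TCM T-like cells. In TCM the other named classes of 20 or more cells reached 10.4% (erythroid-like), 7.46% (classical monocyte-like) and 6.67% (smooth muscle-like). Markers of other cells were not at 0 in the class. The 5 club markers summed to 756 and 534 UMIs per 100000 UMIs in CM and TCM, against 31510 and 29640 in club-like cells, the 10 endothelial markers to 141 and 173 and the 10 fibroblast markers to 61.1 and 105, against 1932 and 2084, and 2112 and 2438, in those cells themselves. They were uneven over the 4 clusters. A cluster of 16 CM and 32 TCM cells had fibroblast markers at 729 and 1519 and endothelial markers at 759 and 63.9, and a cluster of 50 and 190 cells had endothelial markers at 374 and 834. Neutrophil markers summed to 1458 and 4802 in the former and 4391 and 5344 in the latter, against 15092 and 18822 in the largest cluster. Their part in the values below was not tested.

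Neutrophils are made in bone marrow, where the developing cell fills its granules in a fixed order and then stops transcribing most granule genes before it leaves for blood. Primary granule proteins such as myeloperoxidase come first, specific granule proteins such as lactoferrin next, and gelatinase granule proteins such as Mmp9 last. Blood neutrophils therefore carry the proteins of all these granules but little of the earlier messenger RNAs, which are highest in precursors of the marrow. Some members belong to the later steps of this order, and none is a primary granule gene. Camp (cathelicidin), Ltf (lactoferrin) and Ngp (neutrophilic granule protein, a cystatin-like protein) are specific granule genes. Mmp8 (neutrophil collagenase) and Mmp9 (gelatinase B) encode granule proteases, and Cd177 a neutrophil surface glycoprotein. Prok2 encodes prokineticin 2, a secreted ligand of G protein-coupled receptors, Wfdc17 and Wfdc21 small secreted proteins with a WAP domain, a fold found in protease inhibitors, and Retnlg a resistin-like secreted protein.

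Camp, Ltf and Ngp lie within 1 stretch of chromosome 9 (GRCm38 109847379 to 109849617 on the minus strand, 111019271 to 111042767 on the plus strand and 110419747 to 110423012 on the plus strand). Mmp8 lies elsewhere on that chromosome (7558456 to 7568485, plus strand). Wfdc17 (83703991 to 83706268) and Wfdc21 (83746940 to 83752642) are close together on the plus strand of chromosome 11. The others were Mmp9 on chromosome 2 (164940780 to 164955850, plus strand), Cd177 on chromosome 7 (24743983 to 24760311, minus strand), Prok2 on chromosome 6 (99711299 to 99726392, minus strand) and Retnlg on chromosome 16 (48872621 to 48874496, plus strand). The coordinates are those of whole protein-coding genes in the GENCODE annotation. RefSeq promoter sequences of GRCm38.p6, from 250 bases before to 50 bases after the start site, were found for 8 members, not for Mmp9 and Wfdc21. They are printed here for Camp, Ltf and Ngp, which in CM were seen mostly in the same few cells. Those of Prok2 and Wfdc17, which had the widest differences in the other direction, are printed as well. Capitals mark TTGCNNAA, a core of sites for the C/EBP factors that drive granule genes, and GAGGAAG, a core of sites for the myeloid factor PU.1, each searched on both strands. No 2 matches overlapped.
Camp, chr9:109849407-109849706, minus strand: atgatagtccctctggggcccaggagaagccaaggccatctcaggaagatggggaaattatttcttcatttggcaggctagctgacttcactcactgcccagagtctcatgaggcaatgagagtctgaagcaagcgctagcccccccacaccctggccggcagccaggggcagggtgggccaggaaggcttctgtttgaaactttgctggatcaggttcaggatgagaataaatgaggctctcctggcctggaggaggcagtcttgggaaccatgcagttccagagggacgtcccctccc
Ltf, chr9:111019042-111019341, plus strand: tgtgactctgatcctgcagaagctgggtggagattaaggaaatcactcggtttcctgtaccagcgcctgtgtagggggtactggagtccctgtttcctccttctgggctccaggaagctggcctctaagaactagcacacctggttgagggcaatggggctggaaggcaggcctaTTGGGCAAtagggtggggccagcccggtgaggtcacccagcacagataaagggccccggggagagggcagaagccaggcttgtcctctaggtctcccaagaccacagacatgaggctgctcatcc
Ngp, chr9:110419558-110419857, plus strand: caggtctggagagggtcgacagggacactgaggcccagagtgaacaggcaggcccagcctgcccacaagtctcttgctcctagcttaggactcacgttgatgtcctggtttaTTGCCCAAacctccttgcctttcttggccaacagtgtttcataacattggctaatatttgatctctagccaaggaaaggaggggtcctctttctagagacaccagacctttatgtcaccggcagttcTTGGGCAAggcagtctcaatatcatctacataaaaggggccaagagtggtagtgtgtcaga
Prok2, chr6:99726343-99726642, minus strand: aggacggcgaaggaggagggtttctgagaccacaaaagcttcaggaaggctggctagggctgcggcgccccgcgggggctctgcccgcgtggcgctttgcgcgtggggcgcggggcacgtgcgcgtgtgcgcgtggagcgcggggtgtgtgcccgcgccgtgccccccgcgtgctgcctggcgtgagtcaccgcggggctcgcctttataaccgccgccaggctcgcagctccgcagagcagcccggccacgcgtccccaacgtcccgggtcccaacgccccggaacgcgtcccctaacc
Wfdc17, chr11:83703806-83704105, plus strand: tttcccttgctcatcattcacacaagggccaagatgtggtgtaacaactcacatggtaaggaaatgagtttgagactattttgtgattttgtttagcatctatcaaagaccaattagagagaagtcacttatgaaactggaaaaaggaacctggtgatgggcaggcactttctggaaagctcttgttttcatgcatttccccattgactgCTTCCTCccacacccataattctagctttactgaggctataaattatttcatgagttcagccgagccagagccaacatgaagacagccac

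The C/EBP letters were present in 4 of the 8 promoters, once in Ltf (first base at -75 from the start site), at -138 and -11 in Ngp, at -19 in Mmp8 and at -246 in Retnlg, and in 10.8% of 32817 promoters of the same length. The PU.1 letters were present in 2 of the 8, at -220 in Mmp8 and at -40 in Wfdc17, and in 13.6% of all promoters. The Camp, Prok2 and Cd177 windows held neither. A match is a run of letters and not a measured site.

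The level of each gene in neutrophil-like cells was the sum of its UMIs over the cells of the class per 100000 UMIs of that class, out of 436658 UMIs in CM and 2957783 in TCM. Among the specific granule genes, Camp had 1512 UMIs in CM and 41 in TCM, or 346 and 1.39 per 100000 (log2 ratio of TCM over CM -7.96, 95% interval -8.45 to -7.52). Ltf had 420 and 12 UMIs, or 96.2 and 0.406 per 100000 (-7.89, -8.85 to -7.07). Ngp had 2210 and 284 UMIs, or 506 and 9.60 per 100000 (-5.72, -5.90 to -5.54). All 3 were lower in TCM, and they stood 4th, 5th and 10th from the lowest log2 ratio of the 7931 genes with at least 20 UMIs over both libraries.

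The proteases and the surface protein differed less. Mmp8 had 112 UMIs in CM and 1676 in TCM, or 25.6 and 56.7 per 100000 (log2 ratio 1.14, 0.87 to 1.43). Mmp9 had 187 and 1628 UMIs, or 42.8 and 55.0 per 100000 (0.36, 0.14 to 0.59). Cd177 had 61 and 373 UMIs, or 14.0 and 12.6 per 100000, and its log2 ratio of -0.15 was the only one of the 10 whose interval (-0.54 to 0.27) held 0.

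The secreted proteins were higher in TCM. Prok2 had 4 UMIs in CM and 847 in TCM, or 0.916 and 28.6 per 100000 (log2 ratio 4.97, 3.60 to 6.85). Wfdc17 had 75 and 12424 UMIs, or 17.2 and 420.0 per 100000 (4.61, 4.29 to 4.96), and Wfdc21, its neighbour on chromosome 11, 410 and 3282 UMIs, or 93.9 and 111 per 100000 (0.24, 0.09 to 0.39). The WAP-domain pair thus had far apart ratios. Retnlg had 1430 and 22577 UMIs, or 327 and 763 per 100000 (1.22, 1.14 to 1.30). Prok2 and Wfdc17 stood 3rd and 4th from the highest ratio of the 7931 genes.

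**Figure D1:**
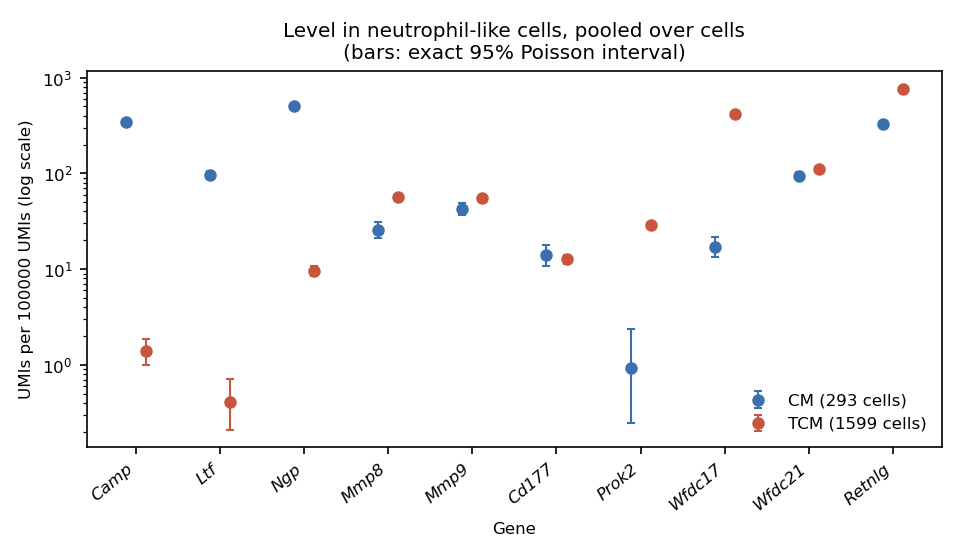
UMIs per 100000 UMIs of neutrophil-like cells on a log axis for each gene, in the CM library (293 cells, blue) and the TCM library (1599 cells, red), with exact 95% Poisson intervals. Camp, Ltf and Ngp are lower in TCM, Prok2 and Wfdc17 are higher by the widest margins, and Cd177 is close to level at 14.0 and 12.6.

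A gene was counted as different where its ratio was at least 2-fold. By that rule 4 members (Mmp8, Prok2, Wfdc17 and Retnlg) were higher in TCM, where 9.95% of the 7931 genes were, and 3 (Camp, Ltf and Ngp) were lower, where 8.4% of the genes were. By their counting intervals 6 members lay above 0, against 8.17% of the genes, and 3 below, against 13.6%. The median log2 ratio was 0.30 over the members and -0.08 over all 7931 genes. Since the members were picked with these ratios known, the counts say nothing more about the list. The largest cluster alone was an alternative chosen after the data were seen. There Cd177 was lower in TCM (-0.53, -0.94 to -0.10) and the interval of Mmp9 held 0 (0.18, -0.06 to 0.43).

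The Camp, Ltf and Ngp mRNAs were held by few cells. Camp was seen in 13 of 293 CM and 4 of 1599 TCM neutrophil-like cells, Ltf in 13 and 9, and Ngp in 19 and 58. Their UMIs were so uneven over cells that, at 500 UMIs per cell, the variance of Ngp was 31.3 times its mean in CM, against 1.21 for Mmp8 and 1.27 for Mmp9. A sum of at least 20 Camp, Ltf and Ngp UMIs, a threshold chosen after the values were seen, was reached by 12 CM cells (4.10% of the class, exact binomial interval 2.13 to 7.04%) and 2 TCM cells (0.125%, 0.0152 to 0.451%). The lowest sums inside were 26 in CM and 65 in TCM, and the highest outside were 4 and 19. These granule-high cells held 1511 of the 1512 Camp UMIs of the CM class, 416 of 420 Ltf and 2195 of 2210 Ngp UMIs. None of them carried a barcode shared by the libraries, and none was among the 6% of cells with the highest doublet scores.

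**Figure D2:**
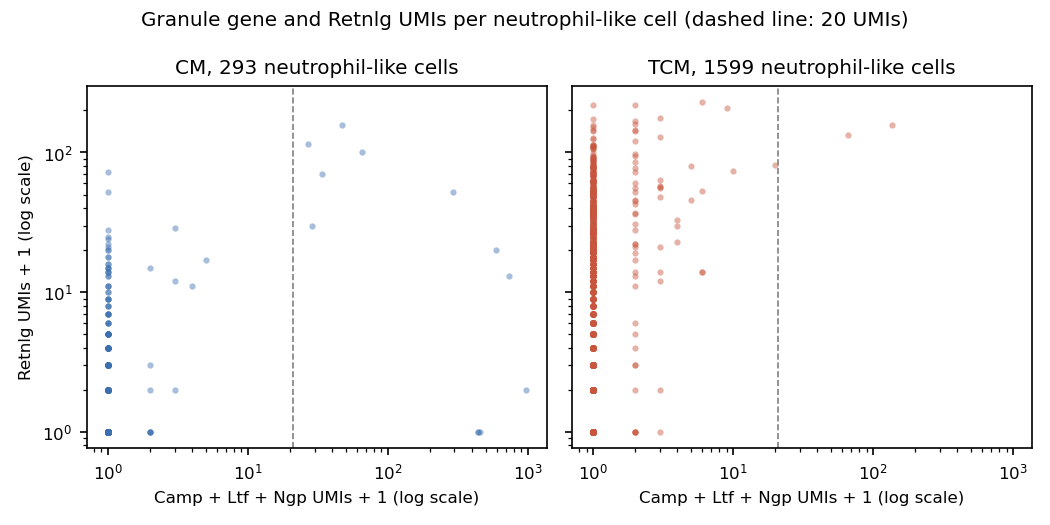
Each point is 1 neutrophil-like cell in CM (left) or TCM (right), placed by its summed Camp, Ltf and Ngp UMIs (x, plus 1) and its Retnlg UMIs (y, plus 1), both on log axes, with points of equal values on top of each other. To the right of the dashed line (20 UMIs) lie 12 CM cells, of which 7 have sums of 290 to 968 and 5 have sums of 26 to 65, and 2 TCM cells.

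The 12 CM cells fell into sets of 7 and 5. In the 7 cells with 290 to 968 summed UMIs, the trio made up 4.93 to 15.7% of a cell's UMIs, Ltf was present in all 7, and Retnlg ranged from 0 to 51 UMIs and was absent from 3. In the 5 cells with 26 to 65, the trio made up 0.762 to 1.81%, Ltf was present in 2, and Retnlg ranged from 29 to 155 UMIs. Mmp8, at 0 to 5 UMIs and present in 2 of the 7, was at 3 to 16 UMIs in the 5. The set with more Camp, Ltf and Ngp mRNA thus had the lower ranges of Retnlg and Mmp8, although the ranges of both genes overlapped. Cebpe, a transcription factor of granulocyte differentiation, was seen in 5 of the 7 and none of the 5. The proliferation genes Mki67 and Top2a were each seen in 2 of the 7 and none of the 5. The 7 were deeper, at 3790 to 10100 UMIs per cell against 1617 to 3590, so rare genes were easier to see in them. The part of depth was not tested. Neither set had a UMI of the primary granule genes Mpo, Elane, Prtn3 or Ctsg. Ms4a3, of the same list, had 2 UMIs in 1 of the 7. Fcnb, a marker used for neutrophil precursors, was seen in 2 of the 7, and neither gene was seen in the 5. Splits of 12 cells seen after the fact have no test.

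Beside the other 281 CM neutrophil-like cells, the 12 had fewer transcripts of the receptors that mark mature neutrophils. Csf3r stood at 11.9 UMIs per 100000 in the 12 and 143 in the others, Cxcr2 at 17.8 and 81.1, and Il1r2 at 13.9 and 232. Ly6g, the surface antigen of mouse neutrophils, was at 156 and 4.66, and Lcn2, the specific granule protein lipocalin 2, at 857 and 61.4. Prok2 and Wfdc17 had no UMI in the 12 cells and 4 and 75 UMIs in the 281 others. The 12 cells had a median of 3798.5 UMIs against 1174. The 2 TCM cells differed from these 12 in that they held 10 and 22 Prok2, 32 and 2 Wfdc17 and 19 and 19 Il1r2 UMIs beside 136 and 65 of the trio. None of the 12 had more than 2 Il1r2 UMIs. Retnlg, at 157 and 132 UMIs in the TCM cells, stood beside 29 to 155 in the 5 CM cells of lower trio sums.

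Leaving out the granule-high cells, an alternative chosen after the data were seen, moved most members. Camp then had 1 UMI in 281 CM cells and 4 in 1597 TCM cells, and Ltf 4 and 8, too few for a direction. Ngp had 15 and 124 UMIs, or 3.88 and 4.20 per 100000 (log2 ratio 0.11, -0.66 to 0.99). The difference between the libraries in these 3 genes thus rested on the 12 CM cells. Cd177, of which the 12 held 50 of 61 UMIs, turned to 2.85 in CM and 11.9 in TCM (2.07, 1.21 to 3.08). Wfdc21, of which they held 199 of 410, went to 54.6 and 110 (1.01, 0.81 to 1.22), Retnlg to 228 and 755 (1.73, 1.63 to 1.83) and Mmp8 to 17.4 and 55.9 (1.69, 1.33 to 2.06). Mmp9, Prok2 and Wfdc17 moved less, to 0.46, 4.74 and 4.43. In these cells 6 members were at least 2-fold higher in TCM, where 9.65% of 7886 genes were, and none of the 8 with at least 20 UMIs was 2-fold lower, where 9% were. The cells were left out for their Camp, Ltf and Ngp UMIs, so the loss of lower members follows from that choice. The 12 CM cells among them also held 50 of 61 Cd177 and 199 of 410 Wfdc21 UMIs. The rise of Cd177 and Wfdc21 past 2-fold thus follows from the choice as well, and nothing is read from either count.

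**Figure D3:**
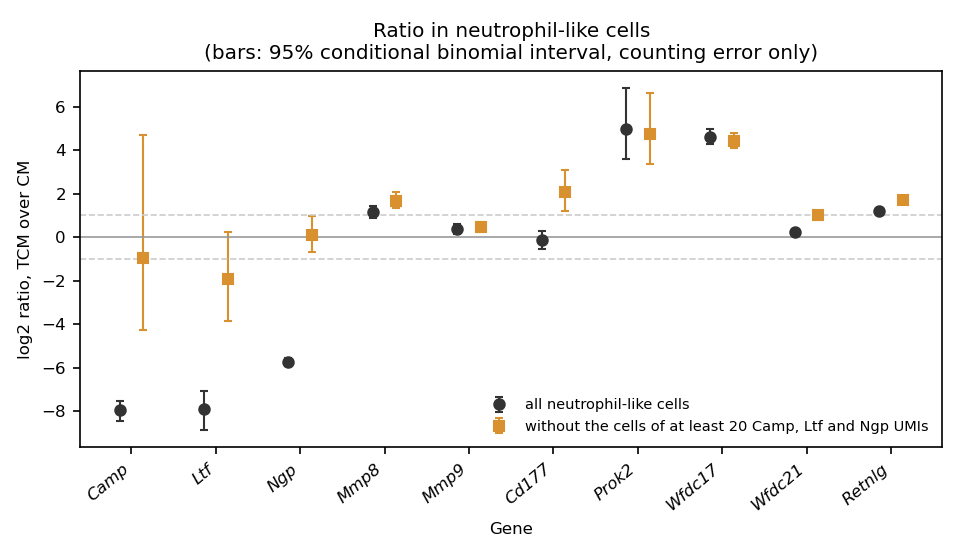
Log2 ratio of TCM over CM in neutrophil-like cells for each gene, over all cells of the class (black circles) and without the 14 cells of at least 20 Camp, Ltf and Ngp UMIs (orange squares), with 95% conditional binomial intervals that cover counting error only and dashed lines at 2-fold. Camp, Ltf and Ngp leave the range of -5.72 to -7.96 once those cells are left out, and Cd177 goes from -0.15 to 2.07.

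The share of cells with a UMI was compared at 500 UMIs per cell, because the median neutrophil-like cell had 1205 UMIs in CM and 1578 in TCM. In percentage points Wfdc17 differed most, in 8.87% (5.88 to 12.7%) of CM and 61.3% (58.9 to 63.7%) of TCM cells at that depth, and in 13.7% and 77.2% as sequenced. Prok2 was seen in 1.02% (0.212 to 2.96%) and 7.94% (6.66 to 9.38%), Mmp8 in 9.22% (6.16 to 13.1%) and 17.8% (16.0 to 19.8%), and Retnlg in 41.0% (35.3 to 46.8%) and 55.1% (52.6 to 57.6%). For those 4 genes the intervals of the libraries were apart. For Mmp9 (19.8% and 23.9%), Cd177 (3.07% and 5.38%) and Wfdc21 (22.5% and 30.5%) the shares were closer, and the intervals of Mmp9 and Cd177 overlapped. Camp, Ltf and Ngp were seen in 4.10%, 3.41% and 5.12% of CM cells and in 0.188%, 0.125% and 1.56% of TCM cells.

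T-like cells, which should lack these genes, gave the background. They had a median of 2385 UMIs per cell (CM) and 2541 (TCM). At 500 UMIs per cell, Retnlg was seen in 0.135% of CM and 1.97% of TCM T-like cells and Wfdc17 in 0.135% and 1.31%, the highest shares of the 10 there, and as sequenced in 0.405% and 6.77%, and 0.135% and 4.59%. Camp and Ngp had no UMI in any T-like cell, which allows a share of up to 0.405% in CM and 0.655% in TCM by 3 cells of the total, and of up to 0.497% and 0.802% by the Clopper-Pearson interval. Every TCM neutrophil-like share except those of Camp and Ltf lay above the T-like share and its interval. Camp at 0.188% and Ltf at 0.125% in TCM were within what the T-like cells allow.

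**Figure D4:**
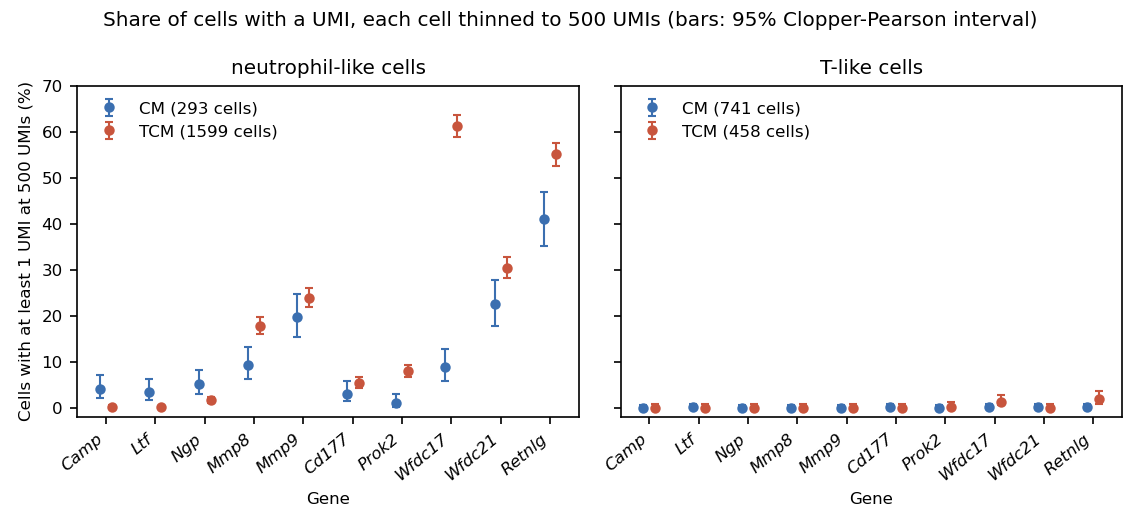
Percent of cells with at least 1 UMI of each gene after each cell was thinned to 500 UMIs, in neutrophil-like cells (left) and T-like cells (right) of CM (blue) and TCM (red), with 95% Clopper-Pearson intervals. Wfdc17 goes from 8.87% to 61.3% of neutrophil-like cells, while no gene passes 1.97% in T-like cells.

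Cells of the TCM library held more of the members at once. The median neutrophil-like cell had UMIs of 2 members in CM and 3 in TCM, or 1 and 2 at 500 UMIs per cell, and 12.3% of CM against 33.3% of TCM cells had at least 3 at that depth. The trio went together in CM: at 500 UMIs per cell 91.7% of the 12 cells with Camp also had Ngp and 58.3% had Ltf, against 1.42% and 1.07% of the cells with no Camp. In TCM, cells with Prok2 held Retnlg, Wfdc17 and Mmp8 in larger shares than cells with no Prok2. Of the 127 TCM cells with Prok2 at that depth, 89.8% had Retnlg, 72.4% Wfdc17 and 35.4% Mmp8, against 52.1%, 60.3% and 16.3% of the cells with no Prok2. Retnlg and Wfdc21 also shared cells, as 78.6% of TCM cells with Wfdc21 and 44.8% of those with no Wfdc21 had Retnlg. In CM no cell with Camp had Prok2 or Wfdc17, while in TCM 2 of the 3 cells with Camp had each. These shares describe cells of 1 library each.

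Spread over cells differed between the other members as well. In TCM, Retnlg ranged up to 227 UMIs in a cell with a median of 3, and Wfdc17 up to 90 with a median of 4. At 500 UMIs per cell, the variance was 8.27 times the mean for Retnlg and 4.25 times for Wfdc17, against 2.03 for Prok2, 2.05 for Mmp8, 1.67 for Wfdc21, 1.28 for Cd177 and 1.22 for Mmp9. The 4 clusters were uneven too. The largest, with 219 CM and 1182 TCM cells, held all 1512 Camp UMIs of the CM class. A cluster of 8 CM and 195 TCM cells, of low depth (median of 652 and 945 UMIs), held 22 of the 41 Camp and 128 of the 284 Ngp UMIs of TCM, of which 1 granule-high cell had all 22 and 110.

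Several members were also found outside neutrophil-like cells. Wfdc17 stood at 420.0 per 100000 in TCM neutrophil-like cells, then at 96.4 in classical monocyte-like cells (CM 45.3), 30.3 in erythroid-like cells (22 UMIs in 67 cells, none in 45 CM cells), 29.6 in alveolar macrophage-like cells (CM 42.0), 27.5 in interstitial macrophage-like cells (CM 24.1) and 22.5 in dendritic-like cells (CM 12.4). In CM the neutrophil-like level of 17.2 (13.5 to 21.5) was below those of classical monocyte-like and alveolar macrophage-like cells, and its interval overlapped that of interstitial macrophage-like cells (19.8 to 28.9). Only the last 4 of those TCM values had overlapping intervals between neighbours (19.0 to 45.8, 26.9 to 32.4, 23.0 to 32.6 and 19.3 to 26.1). The erythroid-like value of 30.3 stood beside a Wfdc17 level of 29.5 in the free RNA of TCM, whose part in it was not tested. In CM, 5.45% of all Wfdc17 UMIs lay in neutrophil-like cells and 84.7% in other cells, and in TCM 68.2% and 15.3%. Its relative Wfdc21 stood at 55.0 in CM and 61.8 in TCM alveolar macrophage-like cells, from 787 and 979 UMIs, below the 93.9 and 111 of neutrophil-like cells.

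Ltf was also measured in club-like cells, the secretory cells of the airways, with 191 UMIs in 73 CM cells and 1427 in 69 TCM cells (19.0 and 212 per 100000). A single TCM cell of 30567 UMIs held 1189 of these, and without it the TCM level was 37.0. Of all Ltf UMIs of the TCM library, 94.4% lay in cells other than neutrophil-like ones, and only 12 UMIs lay in neutrophil-like cells. Cd177 stood at 15.1 and 18.6 per 100000 in classical monocyte-like cells, beside 14.0 and 12.6 in neutrophil-like cells, their intervals overlapping in CM (12.1 to 18.6 and 10.7 to 17.9) and not in TCM (16.2 to 21.1 and 11.4 to 14.0). It also had 49 UMIs in CM and 11 in TCM club-like cells. Mmp8 reached 4.34 and 15.8 in classical monocyte-like cells, from 25 and 198 UMIs, and Mmp9 3.83 and 14.4 in interstitial macrophage-like cells, from 18 and 68. Of the 4 members with at least 20 UMIs over both libraries in classical monocyte-like cells, Mmp8, Wfdc17 and Retnlg were at least 2-fold higher in TCM, where 5.32% of 7093 genes were, and none was 2-fold lower, where 4.72% were. The intervals of these 3 lay above 0, as for 9.47% of the genes, and none below, as for 9.56%. In alveolar macrophage-like cells Retnlg, with 0 and 23 UMIs, was the member at least 2-fold higher, where 3% of 8697 genes were, and none was 2-fold lower, where 1.18% were. There the intervals of Retnlg and Wfdc21 lay above 0, as for 10.1% of the genes, and that of Wfdc17 below, as for 4.37%. An estimate of free RNA from globin and airway secretory genes put 37.0 Retnlg UMIs in TCM alveolar macrophage-like cells, against the 23 counted. Its part in that ratio was not tested.

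Camp, Ngp, Prok2 and Retnlg were mostly found in neutrophil-like cells. Of the Camp and Ngp UMIs of the CM library, 98.6% and 98.2% lay there, nearly all in the 12 granule-high cells, and of those of TCM 57.7% and 83.5%. Of the TCM UMIs of Prok2 and Retnlg 79.6% and 78.1% lay there. In CM it was 4 of 6 UMIs for Prok2 and 79.7% for Retnlg. Retnlg had 117 UMIs in TCM classical monocyte-like cells, of which 1 cell held 85, against 2 in CM. Its highest TCM levels outside neutrophil-like cells were 75.7 per 100000 in erythroid-like cells (55 UMIs, at most 4 in a cell, none in CM), 19.6 in pericyte-like cells (170 UMIs, 134 of them in 1 cell) and 12.3 in smooth muscle-like cells (120 UMIs). The TCM erythroid-like cells had a median of 765 UMIs, and Retnlg stood at 51.3 in the free RNA of TCM. The part of free RNA in the erythroid-like level was not tested. In every other named class of 20 or more cells per library the Retnlg level was higher in TCM, with an interval that held 0 in club-like cells alone. The estimate of free RNA was not made for erythroid-like and club-like cells. TCM Retnlg counts were above it in AT1-like, classical monocyte-like, dendritic-like, pericyte-like and smooth muscle-like cells. They were below it in the other named classes outside neutrophil-like cells, as in endothelial-like cells (120 counted, 246 estimated).

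**Figure D5:**
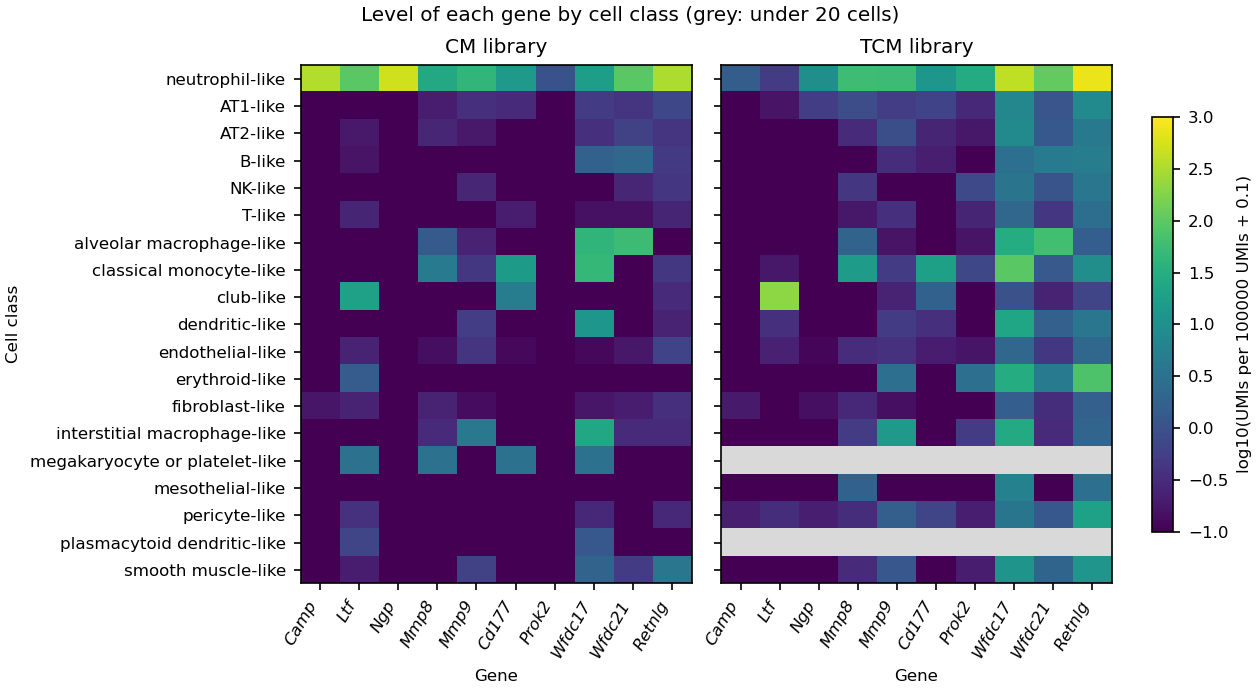
Level of each gene by cell class in the CM (left) and TCM (right) library, as log10 of UMIs per 100000 UMIs plus 0.1, with classes of under 20 cells in grey. Beside the neutrophil-like row, Ltf stands out in club-like cells, Wfdc17 in monocyte, macrophage and dendritic-like cells, Wfdc21 in alveolar macrophage-like cells, Cd177 in classical monocyte-like cells and, in TCM, Retnlg (75.7) and Wfdc17 (30.3) in erythroid-like cells. In the free RNA of TCM, Retnlg was at 51.3 and Wfdc17 at 29.5 per 100000.

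Droplets of at most 50 UMIs, too shallow to hold a cell, were taken as the free RNA of each suspension. CM had 224000 of them with 696980 UMIs and TCM 250739 with 431071, 2.18% and 1.18% of the libraries. Most were shallower still, as 215755 of them in CM and 249925 in TCM had at most 20 UMIs. Retnlg was at 7.89 (5.94 to 10.3) per 100000 in CM and 51.3 (44.7 to 58.5) in TCM, and Wfdc17 at 5.74 (4.10 to 7.81) and 29.5 (24.6 to 35.1). Mmp8 had 2 and 18 UMIs there and Prok2 1 and 15, and their intervals of the ratio also lay above 0, as did that of Wfdc21 with 20 and 30 UMIs. Those of Camp (9 and 3 UMIs), Ltf (8 and 5), Ngp (12 and 5), Mmp9 (5 and 8) and Cd177 (5 and 6) held 0. So for Camp and Ngp the free RNA level of 1.29 and 1.72 per 100000 in CM stood against 346 and 506 in the neutrophil-like cells. In TCM Camp was at 0.696 in free RNA and 1.39 in neutrophil-like cells, Ngp at 1.16 and 9.60, and Ltf at 1.16 and 0.406, so that Ltf was not above the free RNA there. Of all UMIs of a member, 0.533 to 3.07% lay in these droplets in CM, leaving out Prok2 with 1 of 6 UMIs, and 0.327 to 4.23% in TCM. Deeper droplets that were not kept as cells held a further 16.7% of all UMIs in CM and 25.4% in TCM. In TCM they held 29.6% of the Camp and 17.4% of the Retnlg UMIs. The shares in droplets of at most 50 UMIs may therefore be only a part of the free RNA. Droplets of 51 to 200 UMIs gave other CM levels, namely 0.217 for Camp, 0.407 for Ngp, 0.109 for Cd177, 3.39 for Ltf, 1.90 for Wfdc17 and 4.05 for Retnlg. In TCM they gave 0.241 for Camp, 0.467 for Ngp, 0.807 for Ltf, 32.5 for Wfdc17 and 56.3 for Retnlg. Retnlg in TCM T-like cells, at 2.69 per 100000, Wfdc17 at 1.95 and their higher levels in TCM in classes such as T-like cells moved with the free RNA, whose part in them was not tested.

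The companion genes were read with the same 2-fold rule in neutrophil-like cells. Of 8 specific granule and secretory companions with at least 20 UMIs, none was 2-fold higher in TCM and 3 were lower. Those with most UMIs were Hp (haptoglobin, log2 ratio 0.99), Lcn2 (0.74), Cyba (a subunit of the NADPH oxidase, -0.21) and Pglyrp1 (a peptidoglycan recognition protein, -0.44). The 3 lower ones were Chil3 (-2.62), Cybb (-1.29) and Olfm4 (-1.17), named after their values were seen. Without the granule-high cells 3 were 2-fold higher, namely Lcn2 (2.04), Chil1 (1.10) and Olfm4 (2.11), and 1 was lower, Chil3 (-1.01). Olfm4, a marker of a subset of neutrophils, had 60 of its 66 CM UMIs in the 12 cells. Of 7 primary granule genes only Ctsc (cathepsin C) had 20 UMIs, with a ratio of 0.49, and Mpo and Ctsg had none in either library.

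Among the maturity genes, those with most UMIs were Il1r2 (0.58), Trem1 (an activating receptor of myeloid cells, 0.32), Csf3r (0.10) and Cxcr2 (0.82). Ly6g went from 97 UMIs in CM to 607 in TCM (-0.11), and to a ratio of 2.10 without the granule-high cells. Of 10 activation genes, Cxcl3, a ligand of Cxcr2, was 2-fold higher (1.75) and 3 were lower, Ccl3 (-1.98), Tnf (-1.76) and Icam1 (-1.04). The most abundant were Il1b (interleukin 1 beta, -0.69), Cxcl2 (-0.43), Cd14 (0.68) and Cxcl3. Of 6 granulocyte transcription factors measured, only Cebpe was 2-fold different, with 16 UMIs in CM and 4 in TCM, and Cebpb, Spi1 and Cebpd lay at -0.21, 0.13 and -0.05.

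Among 7 measured protease inhibitors of the granule enzymes 2 were 2-fold higher in TCM. They were Stfa2, a stefin that inhibits cysteine proteases, with 7 and 473 UMIs (3.32), and Serpina3n with 1 and 19 UMIs. These counts came from 436658 UMIs of the class in CM and 2957783 in TCM, and Serpina3n only just met the minimum of 20 UMIs. Cstb (cystatin B, -0.99), Timp2 (0.82) and Timp3 (0.58), tissue inhibitors of metalloproteases, were under 2-fold. The relatives of Wfdc17 and Retnlg did not share their ratios. Of the 3 WAP-domain genes measured Slpi was at 0.11, Wfdc2 at 0.08 and Wfdc1 at -0.24, nearer to the 0.24 of Wfdc21 than to the 4.61 of Wfdc17. Of the resistin-like genes Retn was at 0.15 and Retnla at -0.59. None of the 4 gelatinase granule companions was 2-fold different (Adam8 0.33, Itgam -0.02, Slc11a1 0.09 and Mmp25 -0.08). No gene of the prokineticin family other than Prok2, and neither of its receptor genes, reached 20 UMIs.

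The genes whose levels were most like a member's over 36 points of class by library were S100a8 (Pearson's r 0.96) and S100a9 (0.95), both calprotectin subunits, for Retnlg, Stfa2 (0.96) and Sycp2 (0.93) for Prok2, Fpr1 (0.94) and Cd300lf (0.89) for Wfdc21, and Lilrb4a (0.92) and Lilr4b (0.91) for Wfdc17. Mmp8 was most like Trem3 and Gm31814 (0.91 each), Mmp9 like Gm34589 (0.91) and Cstdc5 (0.89), and Cd177 like F5 and Gm9733 (0.84 each). For Camp (Lhx1 0.93 and Il13 0.90) and Ngp (Lhx1 0.98 and Gm19696 0.96) the likeness rests on the single CM neutrophil-like point, and Ltf followed Catip (0.81) and Ccdc146 (0.80). The points share libraries and free RNA, so these are descriptions. Over the 1599 TCM neutrophil-like cells at 500 UMIs, Retnlg went with S100a8 (0.51) and S100a9 (0.46) and Wfdc21 with the same genes (0.39 and 0.36), while the highest r of the other 8 members stayed at or under 0.20, too weak in counts this sparse to be read.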

How the data were processed

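Whole-lung cell suspensions of the 2 conditions were made into barcoded 5′ libraries, 1 per condition. The authors aligned the reads to mm10 (GRCm38.p6) with Cell Ranger, and the file headers name version 4. The values are the UMI counts the authors deposited per gene and barcode, for all 737280 barcodes of each library and with no normalization. Cells were filtered as in the study (at least 500 UMIs, at least 200 genes, at most 10% mitochondrial UMIs), and clustered (1000 variable genes, 50 components, 15 neighbours, leidenalg 0.10.2 at resolution 1) without the 10 members and their companion genes. A cluster took a class name from 27 marker lists where the mean log2 fold of the markers was at least 1 with a lead of 0.5 and at least 3 markers were seen in at least 10% of its cells, and 13 of 50 clusters stayed unnamed. Class names are rebuilt and may differ from the study's. The doublet caller Scrublet (scanpy 1.11.5) marked 0 cells, so its calls were not used and no cell was removed, and its scores served only to rank cells. Levels are summed UMIs per 100000 with exact Poisson intervals. Ratios have conditional binomial intervals at 95%, a sum of 0 was set to 3 counts, and genes with at least 20 UMIs over both libraries were compared, called at 2-fold. Shares have Clopper-Pearson intervals, with each cell thinned to 500 UMIs. PCR copies are merged by UMI, and all intervals cover counting error within 1 library, so no test was made. The script was tested on simulated data. The members, the companion lists and the marker lists were chosen with earlier results of these data known. Every member is named, each companion list is given by its 2-fold count with up to 4 genes of most UMIs, and for each member the 2 genes of highest r are named. For the maturity list, 1 gene and the 2-fold count are not reported here. Promoters are from RefSeq and gene positions from GENCODE. Alternatives for cell class, filters, scaling, depth and free RNA, and 4 chosen after the data were seen, were run.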

Additional observations from a re-analysis of the deposited data

Results flagged for a closer look

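For 3 genes the ratio in neutrophil-like cells and that in another class had opposite signs with intervals on opposite sides of 0. With 1 library per condition the difference between the classes was not tested. Ltf had a log2 ratio of TCM over CM of -7.89 in neutrophil-like cells and 3.48 in club-like cells. In neutrophil-like cells 12 CM cells held 416 of the 420 CM UMIs, and in club-like cells 1 TCM cell held 1189 of the 1427 TCM UMIs. Without that cell the club-like ratio was 0.96 (0.68 to 1.24), and without the cell of most Ltf UMIs in each library 2.15 (1.78 to 2.53). Wfdc17 had a log2 ratio of 4.61 in neutrophil-like cells and -0.51 (-0.68 to -0.33) in alveolar macrophage-like cells, where 601 UMIs in 135 of 315 CM cells stood against 468 in 152 of 333 TCM cells and no cell held more than 43. Free Wfdc17 RNA was higher in TCM, at 29.5 against 5.74 per 100000. Ngp had a ratio of -5.72 in neutrophil-like cells. In AT1-like cells it had no UMI in 454 CM cells against 7 in 319 TCM cells, all in 1 cell. With 3 counts in place of 0 that gives a log2 ratio of 1.43, with an interval from 0.74 and no upper limit.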

How the results depend on the processing

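No paired analysis was possible because each group has 1 library. The median log2 ratio of the members, 0.30, was 0.52 in droplets with at least 2 of Csf3r, Cxcr2 and Il1r2, 1.11 with all 3, 0.58 with the members and listed genes kept in the clustering, 0.64 as a mean over cells and 0.56 with cells thinned to 500 UMIs. In an alternative chosen after the data were seen, it was 1.35, with 0 members lower in TCM in place of 3, without the cells of at least 20 Camp, Ltf and Ngp UMIs, where Ngp turned from -5.72 to 0.11. Only 5 of those 12 CM cells carried at least 2 of the 3 receptor genes. The median of all genes, -0.08, was -0.19 without the top 6% of doublet scores, -0.29 from 1000 UMIs per cell, -0.41 with the listed genes kept in the clustering, -0.25 with no minimum of UMIs and -0.19 in the largest cluster alone. Under the 11 alternatives of class, filters, scaling, depth and free RNA, Camp ranged from -8.06 to -4.10, Ltf from -8.65 to -5.47, Ngp from -5.79 to -3.16, Mmp8 from 1.02 to 1.47, Mmp9 from 0.28 to 0.60, Prok2 from 3.16 to 6.72, Wfdc17 from 4.23 to 5.11, Wfdc21 from 0.17 to 0.83 and Retnlg from 1.12 to 1.53, with no change of sign. Cd177 lay on both sides of 0, from -0.31 to 2.35, with an interval above 0 with all 3 receptor genes (2.35) and as a mean over cells (0.80), and below 0 in the largest cluster alone (-0.53). The interval of Mmp9 held 0 with all 3 receptor genes (-0.03 to 0.60), with cells thinned to 500 UMIs (-0.08 to 0.65, where 5 members lay above 0) and in the largest cluster alone (-0.06 to 0.43). Of 40 comparisons of a share at another depth, 30 moved beyond the interval, as did 10 of 40 comparisons of a free RNA level in another range of droplets. Leaving out the shared barcodes moved the members' median to 0.32. The causes were not tested. Values of 1 library pair have no replicate error.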
